A study of Mus musculus with 22 samples.

Results

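The miR-30 family was examined in small RNA sequenced from isolated mouse round spermatids (RS), the haploid germ cells formed by meiosis. Members were chosen by name from the deposited count table, as a list of main and passenger arms of the family, and comprised 8 of its 1966 mature miRNA names: the 5p arms mmu-miR-30a-5p, mmu-miR-30b-5p, mmu-miR-30c-5p, mmu-miR-30d-5p and mmu-miR-30e-5p, and the 3p arms mmu-miR-30a-3p, mmu-miR-30c-2-3p and mmu-miR-30e-3p (mmu, for mouse, is left out from here on). The table also held 3 rarer arms of the same hairpins that were not on the list, miR-30b-3p, miR-30c-1-3p and miR-30d-3p. RS came from wild-type (WT) mice, from GRTH-KO mice, which lack the testis RNA helicase GRTH/DDX25 in the whole body, and from GRTH-KI mice, which carry a human GRTH gene with a single amino acid change and lack the phosphorylated form of the protein. RS were isolated from dispersed testis cells on a BSA gradient. The mice were 75 to 85 days old, and both mutant lines have RS that do not elongate. KO was sequenced with WT in one experimental batch (n = 5 each) and KI with other WT samples in another (n = 6 each), so each mutant was compared with the WT of its own batch. KO and KI were never sequenced together. The labels do not say whether the samples of a group came from separate mice, and p-values measure only the spread between these samples, which may be technical.

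A miRNA is cut from a hairpin precursor by Drosha and Dicer. One arm of the duplex is loaded into an Argonaute protein and pairs with target mRNAs mainly through its seed, bases 2 to 8 from the 5′ end, while the other arm is usually degraded. The 5p arms of the miR-30 family share a seed and are the main products of their hairpins, and the family is known in many tissues for targets in differentiation, autophagy and epithelial to mesenchymal transition.

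The mature sequences below, from RefSeq (GRCm38.p6), are shown because the near identity of the members decides which of them short reads can tell apart. Of the 8 members, 6 were matched by name, and capitals mark the seed. miR-30b-5p and miR-30d-5p had no entry in the RefSeq set used, so the comparisons and seed counts below leave them out. The 5p arms were as follows.
miR-30a-5p: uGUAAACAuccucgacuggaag
miR-30c-5p: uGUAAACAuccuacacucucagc
miR-30e-5p: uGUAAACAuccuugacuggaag
The 3p arms fell into 2 seed groups.
miR-30a-3p: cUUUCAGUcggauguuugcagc
miR-30e-3p: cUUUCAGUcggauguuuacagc
miR-30c-2-3p: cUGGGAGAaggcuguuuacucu
Counting positions from 1 at the 5′ end, miR-30a-5p and miR-30e-5p differed by 1 base, C13U, and miR-30a-3p and miR-30e-3p also by 1 base, G18A. miR-30a-5p and miR-30c-5p shared 17 of 22 bases and differed by C13A, G14C, G18C, G19U and A20C, all of them outside the seed. Among the 1675 names of the table with a sequence, the seed GUAAACA was found in 4, the 3 members above and miR-384-5p. miR-384-5p held 18 counts over the 22 libraries and was at 0 in 9 of them.
miR-384-5p: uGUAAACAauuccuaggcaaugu
The seed UUUCAGU was found in 2 names, both of them members, and UGGGAGA in 3, namely miR-30c-2-3p, miR-30c-1-3p and miR-6958-5p.

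In the GRCm38 coordinates of the table, the members came from 3 pairs of neighbouring hairpins. On chromosome 1 (+ strand), miR-30a-5p lay at 23272274 to 23272295 and miR-30a-3p at 23272315 to 23272336, with no same-strand gene annotated there besides the hairpin. The Mir30c-2 hairpin followed 19361 bases away, with miR-30c-5p at 23291714 to 23291736 and miR-30c-2-3p at 23291754 to 23291775, in an exon of the lincRNA Gm27028. On chromosome 4 (− strand), miR-30e-5p (120772660 to 120772681), miR-30e-3p (120772618 to 120772639) and the other locus of miR-30c-5p (120769584 to 120769606) lay in introns of Nfyc, which encodes a subunit of the CCAAT-binding factor NF-Y, with 2983 bases between the hairpins. On chromosome 15 (− strand), miR-30b-5p (68337469 to 68337490) had no other same-strand gene, and miR-30d-5p (68341257 to 68341278) lay in an exon of the lincRNA Gm20732, with 3697 bases between the hairpins. miR-30c-5p was thus the only member with 2 loci. How reads were shared between its loci, and between members that differ by 1 base, was not determined. Levels of miR-30c-5p against the other members and of miR-30a against miR-30e are therefore uncertain. The sequences of miR-30b-5p and miR-30d-5p were not compared with the others, so whether reads were shared with them was not determined either.

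Total counts ranged from 559957 to 3239357 per library, with KO the shallowest group (559957 to 881323, against 870913 to 1081333 in its WT) and both groups of the KI batch at 2067322 or more. Of 10 miRNAs listed as germ cell markers, such as miR-34c-5p and miR-741-3p, all were counted in every group and together took a median of 26.6% of counts in WT of the KO batch, 24.8% in KO, 34.7% in WT of the KI batch and 33.8% in KI. Their summed level ranged from 210631 to 251077 TMM-scaled counts per library size (CPM) in WT and 178230 to 234037 CPM in KO, and from 381954 to 437271 CPM in WT and 347910 to 396811 CPM in KI; 8 of 10 fell in KO and 8 of 10 in KI. Markers of vascular, smooth muscle and stromal cells, such as miR-143-3p and miR-199a-3p, summed to 772.6 to 2135 CPM in WT and 1945 to 4042 CPM in KO, and to 1421 to 2360 CPM in WT and 2210 to 4951 CPM in KI, and 4 of the 5 tested of 7 rose in each mutant. Blood and immune cell markers summed to 4120 to 5184 CPM in WT and 4475 to 6268 CPM in KO, and to 2994 to 4013 CPM in WT and 3731 to 5983 CPM in KI, with 3 and 5 of the 6 tested of 8 higher. Of 5 striated muscle markers, miR-133b-3p and miR-206-3p were at 0 in every library, and the list summed to 12.9 to 38.7 CPM in WT and 24.4 to 152.2 CPM in KO (1 of 1 tested higher), and to 52.2 to 767.9 CPM in WT and 46.7 to 526.9 CPM in KI (0 of 3 tested called). Rises and falls of markers are calls at an adjusted p under 0.1 by edgeR. Over all miRNAs tested, 20.7% were called lower and 21.3% higher in KO, and 19.9% lower and 18.1% higher in KI. The part of the marker shifts in the results on miR-30 was not tested. In such bulk samples fewer cells of a type and less RNA per cell cannot be told apart.

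All 8 members were detected in every library and all passed the filter on low counts in every comparison. CPM are counts scaled by TMM over the 22 libraries, and since a read covers a whole miRNA of 22 or 23 bases no length correction was made. In WT of the KO batch the order of the levels was miR-30c-5p at 7973 ± 319 CPM (SD, n = 5), miR-30e-5p at 5982 ± 474, miR-30d-5p at 2878 ± 293, miR-30a-5p at 2528 ± 114, miR-30b-5p at 1234 ± 45.3, miR-30e-3p at 348 ± 38.5, miR-30a-3p at 117 ± 23.1 and miR-30c-2-3p at 54.3 ± 8.51. Only the neighbours miR-30d-5p and miR-30a-5p overlapped in that order, although miR-30d-5p was above miR-30a-5p in each of the 5 libraries. The first place of miR-30c-5p rested on the counting of its 2 loci: with its counts divided by 2 it took 24.03% ± 1.24 of the 5p counts, below miR-30e-5p at 35.97% ± 1.28 (SD, n = 5). In WT of the KI batch miR-30e-5p led at 9634 ± 655 CPM (SD, n = 6), followed by miR-30c-5p at 6244 ± 345, miR-30a-5p at 4198 ± 196 and miR-30d-5p at 3047 ± 360, with no overlap between neighbours. With its counts divided by its 2 loci, miR-30c-5p took 14.77% ± 0.486 of the 5p counts there (SD, n = 6). That was below the 17.31% ± 0.627 of miR-30a-5p with undivided counts, so the place of miR-30c-5p rested on the counting here too. The 5p arms were thus the abundant products: among all 1966 names miR-30e-5p ranked between 8 and 26 over the libraries. miR-30c-5p, with its counts not divided by loci, ranked between 11 and 30, whereas miR-30c-2-3p, the least abundant member, ranked between 190 and 231.

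**Figure D1:**
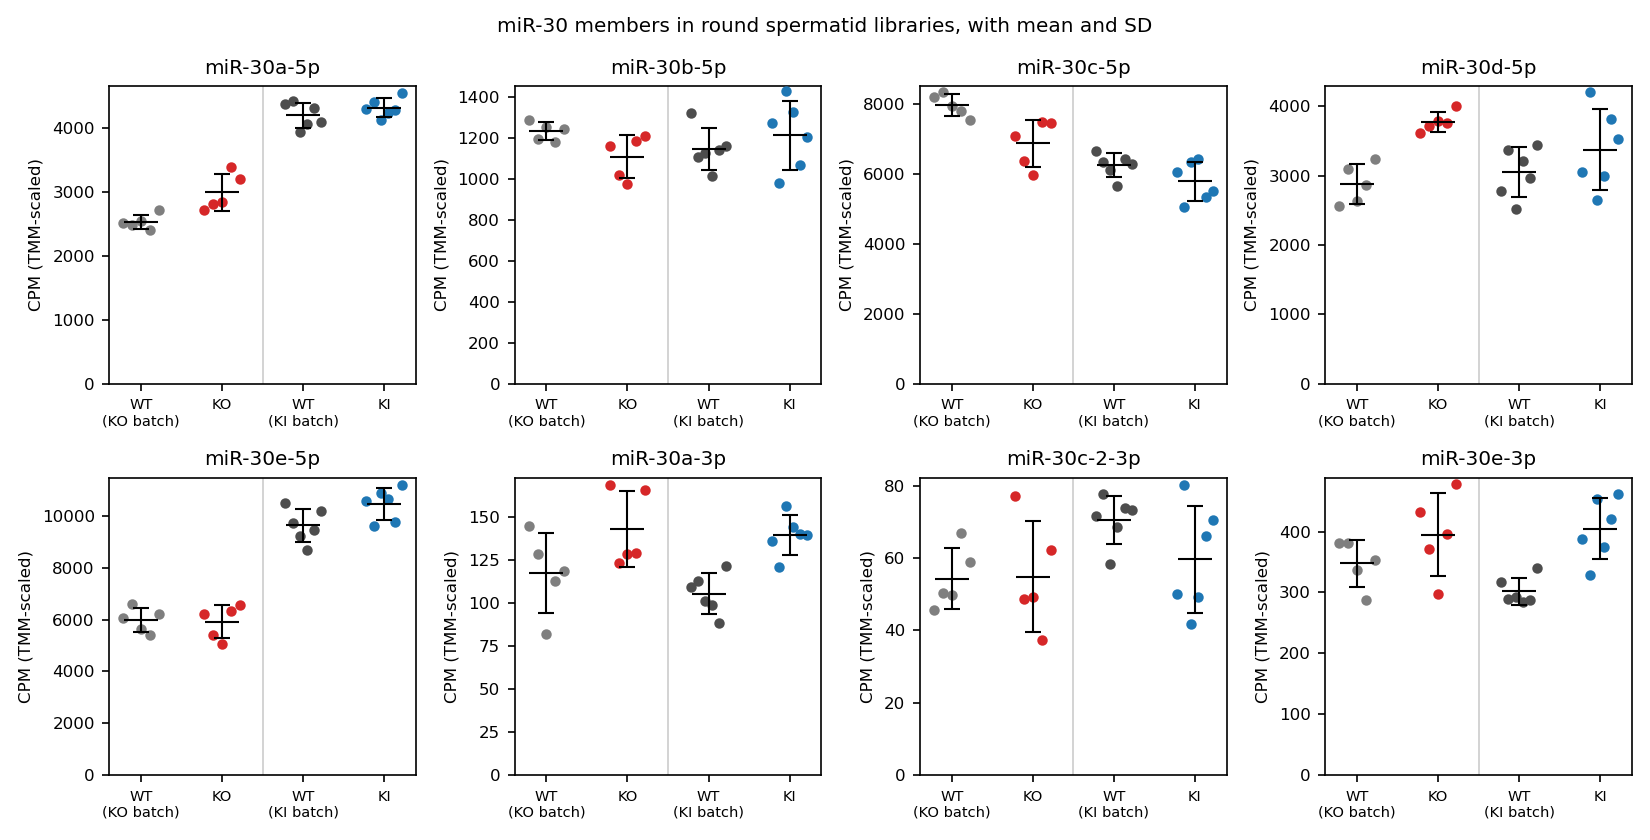
Levels of the 8 miR-30 members as TMM-scaled CPM (linear axis from 0) in each round spermatid library of the 4 groups, with 1 point per library and the mean and SD in black. miR-30d-5p lies between 3610 and 4002 CPM in KO and between 2556 and 3236 CPM in its WT, and miR-30a-5p and miR-30e-5p are higher in both groups of the KI batch.

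The 8 members together took 2.34% ± 0.0496 of all counts in WT of the KO batch (SD, n = 5) and 2.59% ± 0.156 in KO, with ranges of 2.298% to 2.403% and 2.402% to 2.828% that just overlapped. In the KI batch the share was 2.10% ± 0.0459 in WT (SD, n = 6) and 2.35% ± 0.0825 in KI, with ranges of 2.031% to 2.138% and 2.307% to 2.519% that did not overlap. These shares are of all counts and carry no test. The TMM scaling used for the fold changes below moves with the composition of the libraries. Without it the median log2 change of all tested miRNAs was 0.129 for KO and 0.0875 for KI. With it the medians were 0.01 and 0.0009. How many miRNAs did not overlap as shares of all counts was not counted.

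KO was compared with WT of its batch to find which members differed in mice without GRTH. miR-30d-5p and miR-30a-5p rose and miR-30c-5p fell, so the 5p arms of the family, which share a seed, did not move together. These 3 of 8 members passed an adjusted p under 0.1 by edgeR's quasi-likelihood test, whereas 41.9% of the 334 miRNAs tested passed (140), with 21.3% higher (71) and 20.7% lower (69). The count of members was therefore close to the background, and the median log2 fold change was 0.12 over the members and 0.01 over all miRNAs tested.

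miR-30d-5p, one of the miR-30b and miR-30d pair of chromosome 15, measured 2556, 3101, 2632, 2868 and 3236 CPM in WT replicates 1 to 5, and 3610, 3717, 3780, 3759 and 4002 CPM in KO replicates 1 to 5. Every KO library was above every WT library. It rose 1.34-fold, a log2 fold change of 0.42 ± 0.08 (SE) with an adjusted p of 0.00224 (edgeR), and stayed called under each alternative and without each library.

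miR-30a-5p, from chromosome 1, measured 2515, 2482, 2539, 2397 and 2707 CPM in WT and 2721, 2811, 2833, 3389 and 3201 CPM in KO. The groups did not overlap, but the lowest KO library and the highest WT library nearly met. It rose 1.21-fold, with a log2 fold change of 0.27 ± 0.08 (SE) and an adjusted p of 0.0165 (edgeR), and the call was lost without the filter on low counts (0.21, adjusted p of 0.163 by edgeR).

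miR-30c-5p, the member with a locus in each of the chromosome 1 and chromosome 4 pairs, measured 8209, 8355, 7937, 7815 and 7549 CPM in WT and 7081, 6376, 5978, 7495 and 7471 CPM in KO. All KO libraries were below all WT libraries, with KO replicates 4 and 5 just under the lowest WT. It fell by 0.19 on the log2 scale ± 0.07 (SE), with an adjusted p of 0.0590 (edgeR). This call was lost without WT replicate 1 (−0.18), WT replicate 2 (−0.17), KO replicate 2 (−0.16) or KO replicate 3 (−0.15), each with an adjusted p of 0.105 to 0.117 by edgeR. It was also lost when libraries were scaled by their size only (−0.08, adjusted p of 0.348 by edgeR).

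These 3 members were those whose KO and WT libraries did not overlap, as was the case for 19.8% of the miRNAs tested. When libraries were scaled by size only, the called miRNAs were 101 higher and 44 lower in place of 71 and 69, and 4 members were called, all of them higher, miR-30a-5p, miR-30d-5p, miR-30a-3p and miR-30e-3p. Which members were called in KO, and whether any was called lower, therefore depended on the scaling.

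The other 5 members did not pass the test in KO, although miR-30a-3p did without WT replicate 1 (0.39, adjusted p of 0.0868 by edgeR) and miR-30e-3p without KO replicate 3 (0.28, adjusted p of 0.0788 by edgeR). miR-30b-5p, the neighbour of miR-30d-5p on chromosome 15, had means of 1234 CPM in WT and 1110 CPM in KO, a log2 difference of −0.13 ± 0.07 (SE) with an adjusted p of 0.195 (edgeR). miR-30e-5p had means of 5982 and 5920 CPM and a log2 fold change of 0.01, with a 95% interval of −0.16 to 0.18. The 3p arms had log2 fold changes of 0.31 ± 0.15 for miR-30a-3p, 0.21 ± 0.12 for miR-30e-3p and 0.04 ± 0.19 for miR-30c-2-3p (SE), with adjusted p-values of 0.13, 0.195 and 0.899 (edgeR). All 5 overlapped between the groups, and the intervals of miR-30a-3p (−0.02 to 0.64) and miR-30e-3p (−0.06 to 0.47) leave room for rises as large as those of the called members.

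**Figure D2:**
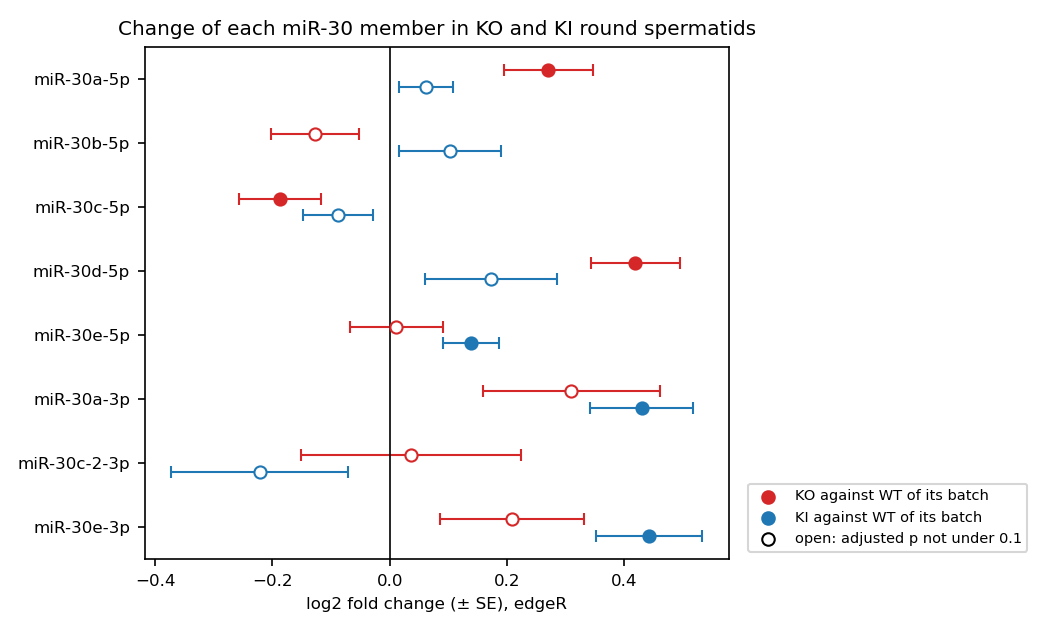
Log2 fold change (± SE, edgeR) of each member in KO (red) and KI (blue) against the WT of the same batch, with filled points for an adjusted p under 0.1. The called members are miR-30a-5p, miR-30c-5p and miR-30d-5p in KO and miR-30e-5p, miR-30a-3p and miR-30e-3p in KI, and no member is called in both.

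Within the 5p counts of the family, shares can be compared without reference to the rest of the library. miR-30c-5p took 38.7% ± 1.63 of them in WT (36.0% to 39.8%) and 33.2% ± 0.776 in KO (32.1% to 34.03%). With its counts divided by its 2 loci the shares were 24.03% ± 1.24 and 19.94% ± 0.557, again without overlap. miR-30d-5p took 13.97% ± 1.20 in WT (12.4% to 15.4%) and 18.3% ± 1.39 in KO (16.97% to 20.3%), and miR-30a-5p 12.3% ± 0.573 and 14.5% ± 0.897 (SD, n = 5 each). For each of these 3 shares the KO and WT libraries did not overlap, while miR-30e-5p kept a similar share, 29.01% ± 1.17 and 28.6% ± 1.07. The shares make up a whole, so a fall of any raises the others, and the 3 are not separate observations. How often such shares did not overlap in other families was not counted.

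The log2 ratio of miR-30d-5p to miR-30c-5p counts went from −1.48 ± 0.18 in WT to −0.86 ± 0.14 in KO, and that of miR-30d-5p to its neighbour miR-30b-5p from 1.22 ± 0.18 to 1.77 ± 0.14 (SD, n = 5 each). The WT ratios to miR-30b-5p lay between 0.98 and 1.38 and the KO ratios between 1.64 and 1.96. The 2 members of the chromosome 15 pair were therefore not counted in a constant proportion. These shares and ratios were chosen after the members' values had been seen and are given with no test.

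**Figure D3:**
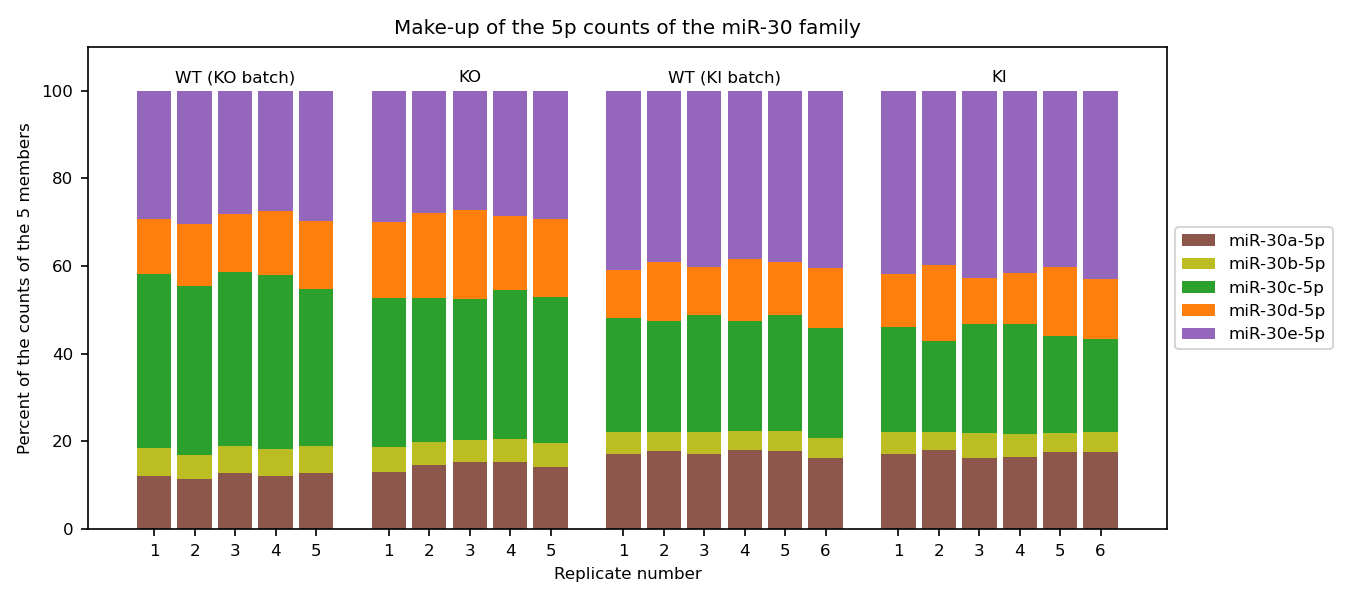
Percent of the counts of the 5 members that are 5p taken by each of them, with 1 stacked bar per library and replicate numbers below. In KO the miR-30c-5p segment is 32.1% to 34.03% and the miR-30d-5p segment 16.97% to 20.3%, against 36.0% to 39.8% and 12.4% to 15.4% in its WT, and miR-30e-5p is the largest segment in the KI batch.

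KI was compared with WT of its batch to find which members differed in mice without phosphorylated GRTH. Here 2 of the 3 arms that are 3p, miR-30a-3p and miR-30e-3p, rose, miR-30e-5p rose by less, and no member fell. These were 3 of 8 members, against 38% of the 387 miRNAs tested (147), with 18.1% higher (70) and 19.9% lower (77), so the count was again close to the background. The median log2 fold change was 0.12 over the members and 0.00 over all miRNAs tested.

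miR-30e-3p ranged from 283.9 through a median of 291.2 to 340.7 CPM in the 6 WT libraries and from 328.8 through 404.7 to 461.0 CPM in the 6 KI libraries. In KI, 5 of the 6 libraries were above every WT library. It rose 1.36-fold, with a log2 fold change of 0.44 ± 0.09 (SE) and an adjusted p of 0.00255 (edgeR). miR-30a-3p, which shares its seed and differs from it by 1 base, ranged from 88.1 through 105.1 to 121.5 CPM in WT and from 120.9 through 139.9 to 156.1 CPM in KI. Again 5 of the 6 KI libraries were above every WT library, and KI replicate 2 was just below the highest WT. It rose 1.35-fold, with a log2 fold change of 0.43 ± 0.09 (SE) and an adjusted p of 0.00252 (edgeR). Both 3p arms stayed called under each alternative and without each library. Of the rarer arms outside the member list, miR-30d-3p rose in KI, from a mean of 15.15 to 22.97 CPM, with a log2 difference of 0.62 ± 0.19 (SE) and an adjusted p of 0.0242 (edgeR), while miR-30b-3p (0.35) and miR-30c-1-3p (−0.33) were not called. In KO neither miR-30d-3p (0.54) nor miR-30b-3p (0.52) was called, and miR-30c-1-3p did not pass the filter.

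miR-30e-5p, the most abundant member in this batch, ranged from 8694 through 9605 to 10493 CPM in WT and from 9626 through 10615 to 11181 CPM in KI. The groups overlapped, with 4 of the 6 KI libraries above every WT library. It rose 1.10-fold, with a log2 fold change of 0.14 ± 0.05 (SE) and an adjusted p of 0.0408 (edgeR). Without KI replicate 4 the change was 0.11 (adjusted p of 0.141 by edgeR) and was not called, nor was it with the spread shared by all 4 groups (0.12, adjusted p of 0.222) or without the filter on low counts (0.14, adjusted p of 0.231).

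The other members did not pass the test in KI. miR-30d-5p, which rose in KO, had means of 3047 CPM in WT and 3373 CPM in KI. The log2 difference of 0.17 ± 0.11 (SE) had an adjusted p of 0.269 (edgeR), and the KI libraries spread from 2649 to 4207 CPM. miR-30a-5p had a log2 fold change of 0.06 (95% interval −0.04 to 0.16), miR-30b-5p of 0.10 (−0.08 to 0.29), miR-30c-5p of −0.09 (−0.22 to 0.04) and miR-30c-2-3p of −0.22 (−0.55 to 0.10). The last 2 were called, both lower, only without KI replicate 4 (miR-30c-5p, −0.14) or KI replicate 2 (miR-30c-2-3p, −0.33).

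All 8 members overlapped between KI and WT, while 12.4% of the miRNAs tested did not. When libraries were scaled by size only, the called miRNAs were 96 higher and 53 lower, and 5 members were called, all higher, with miR-30a-5p (0.15) and miR-30d-5p (0.26) added. In the make-up of the 5p counts, miR-30e-5p took 39.7% ± 1.008 in WT and 41.5% ± 1.36 in KI, and miR-30c-5p 25.7% ± 0.738 and 23.02% ± 1.89 (SD, n = 6 each), with overlap in both.

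The 2 arms of a hairpin are cut from the same precursor. As a ratio of counts of 1 library, the 5p to 3p ratio does not depend on the scaling. Hairpins were tested where both arms were in the table under the same hairpin name with a mean of at least 10 counts (limma on the log2 ratio, with 0.5 added to each count). The miR-30c hairpins were left out, since miR-30c-5p has no 3p arm of the same name. In KI the 5p to 3p ratio of miR-30a and of miR-30e fell. These were 2 of the 4 miR-30 hairpins tested, against 18.3% of 104 hairpins (19). The 2 differ by 1 base in each arm, and how reads were shared between them was not determined. In KO none of the 4 was called at an adjusted p under 0.1 (limma), against 10.7% of 84 hairpins (9), and miR-30b had the lowest unadjusted p of the 4, 0.0557.

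For miR-30e the log2 ratio was 5.04, 5.07, 4.98, 4.94, 5.04 and 4.90 in WT replicates 1 to 6 and 4.77, 4.87, 4.58, 4.83, 4.54 and 4.60 in KI replicates 1 to 6. All KI libraries were below all WT libraries, and how many of the 104 hairpins tested did not overlap was not counted. The mean went from 4.99 ± 0.07 to 4.70 ± 0.14 (SD, n = 6 each), or from 31.9 to 25.9 counts of the 5p arm per count of the 3p arm, a difference of −0.30 ± 0.09 (SE) with an adjusted p of 0.0488 (limma). For miR-30a the mean log2 ratio went from 5.32 ± 0.17 to 4.95 ± 0.16, or from 39.97 to 31.0, a difference of −0.37 ± 0.11 (SE) with an adjusted p of 0.0488 (limma), and the groups overlapped (5.07 to 5.61 in WT and 4.72 to 5.18 in KI). Both calls held without each library and were lost when hairpins with a mean of at least 1 count in both arms were included, with the same differences and an adjusted p of 0.157 (limma).

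In KO the ratio of miR-30e was 4.11 ± 0.09 in WT and 3.92 ± 0.13 in KO, a difference of −0.19 ± 0.11 (SE, adjusted p of 0.306 by limma), and that of miR-30a 4.45 ± 0.31 and 4.39 ± 0.26, a difference of −0.06 ± 0.18 (adjusted p of 0.851 by limma). The 3p arms of miR-30b and miR-30d were rare, with 441 and 643 counts over all 22 libraries, and their ratios differed by −0.62 ± 0.29 and −0.09 ± 0.25 in KO and by −0.27 ± 0.18 and −0.44 ± 0.28 in KI (SE), none of them called. Whether the change of the ratio differed between KO and KI was not tested.

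**Figure D4:**
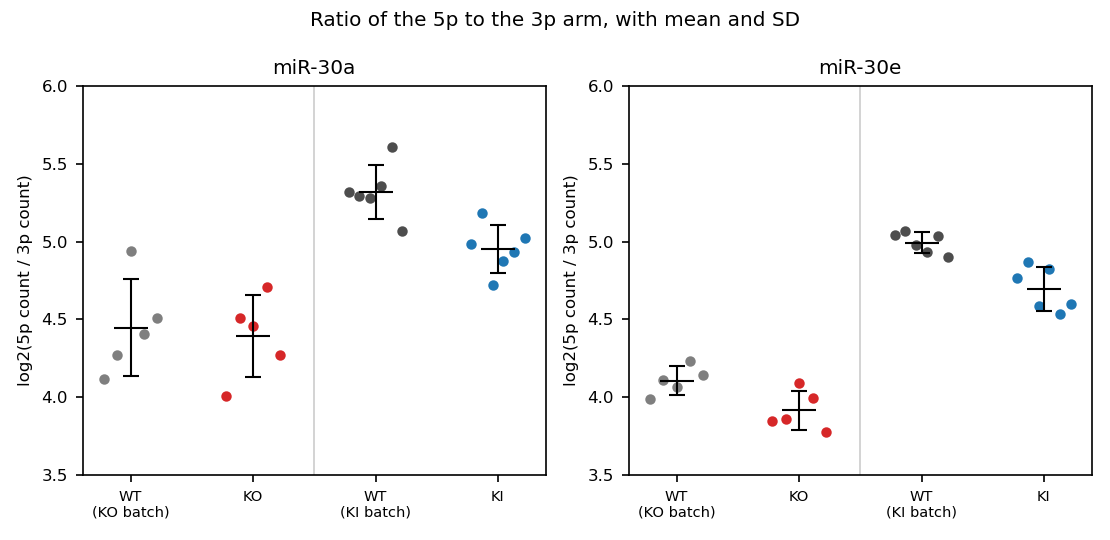
Log2 ratio of 5p to 3p counts of miR-30a and miR-30e in each library (axis from 3.5 to 6), with the mean and SD in black. For miR-30e the KI libraries (4.54 to 4.87) all lie below their WT libraries (4.90 to 5.07), and both hairpins have lower ratios in the KO batch.

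Whether the members responded differently in the mutants was tested as the KO effect minus the KI effect, each against its own WT, in 1 fit of all 4 groups. None of the 8 members was called, and none of the 421 miRNAs tested by edgeR was (0%). Over all miRNAs 67 had an unadjusted p under 0.05, and DESeq2 also called 0. Without KI replicate 2, 26 miRNAs were called, and without WT replicate 1 of the KI batch 1, with 0 members in both cases. The largest positive differences of members were miR-30c-2-3p at 0.26 (95% interval −0.25 to 0.77), miR-30d-5p at 0.24 (−0.05 to 0.54) and miR-30a-5p at 0.20 (0.02 to 0.38, adjusted p of 0.255 by edgeR), and the largest negative ones miR-30e-3p at −0.24 (−0.56 to 0.09) and miR-30b-5p at −0.24 (−0.50 to 0.03). A member called in KO and not in KI, or the reverse, was therefore not shown to differ between the mutants.

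WT of the KI batch was compared with WT of the KO batch as a measure of the background between batches. Here 6 of 8 members were called, against 56.7% of the 383 miRNAs tested (217), with 26.9% higher (103) and 29.8% lower (114). miR-30a-5p was at 2397 to 2707 CPM in WT of the KO batch and at 3941 to 4425 CPM in WT of the KI batch, 1.60-fold higher, with a log2 difference of 0.67 ± 0.06 (SE) and an adjusted p of 5.90e-07 (edgeR). miR-30e-5p was 1.54-fold higher, with a log2 difference of 0.63 ± 0.08 (SE) and an adjusted p of 7.56e-06 (edgeR), and miR-30c-2-3p was higher by 0.32. Lower were miR-30c-5p (−0.41), miR-30e-3p (−0.26) and miR-30b-5p (−0.16).

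miR-30a-5p, miR-30c-5p and miR-30e-5p did not overlap between the WT groups, as was so for 37.9% of the miRNAs tested. When libraries were scaled by size only, the called miRNAs were 47 higher and 193 lower with a median shift of −0.34, and 7 members were called, 2 higher and 5 lower. miR-30d-5p (0.03 under TMM) became −0.30 and was called lower (adjusted p of 0.00355 by edgeR), as was miR-30a-3p (−0.54, adjusted p of 0.00252 by edgeR), and miR-30c-2-3p became −0.02 and was not called, while miR-30a-5p and miR-30e-5p stayed higher (0.34 and 0.30). Some calls were lost when a single library was left out. They were miR-30b-5p (without WT replicates 1, 2, 3 or 5 of the KO batch, −0.14 to −0.16), miR-30e-3p (without WT replicates 1 or 2 of that batch, −0.22 and −0.21) and miR-30c-2-3p (without WT replicates 2 or 5 of the KI batch, 0.24 and 0.26). Without the filter on low counts 4 members were called, 3 higher and 1 lower, and miR-30b-5p and miR-30e-3p were not among them. DESeq2 called 5 members, 3 higher and 2 lower. The 5p to 3p ratio of WT also differed by batch, at 4.45 and 5.32 for miR-30a and 4.11 and 4.99 for miR-30e on the log2 scale.

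Across the 22 libraries, with the mean of each batch removed, members varied together in some pairs and in opposite directions in others. These correlations come from libraries that share batches, genotypes and scaling, and are given as a description. The highest were between miR-30a-3p and miR-30e-3p (Pearson r = 0.787), miR-30e-5p and miR-30e-3p (0.775) and miR-30b-5p and miR-30c-5p (0.769), and the lowest were between miR-30c-5p and miR-30d-5p (−0.713) and between the chromosome 15 neighbours miR-30b-5p and miR-30d-5p (−0.619). miR-30d-5p and miR-30a-5p had an r of 0.655. Of 410 names outside the family, the 3 whose levels most resembled the summed 5p arms were miR-449a-5p (0.813), miR-147-5p (0.757) and miR-20a-5p (0.714).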

How the data were processed

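Small RNA libraries of RS from WT, KO and KI mice were analysed (22 samples in 2 batches). The deposited table holds raw counts per mature miRNA, made by the authors with cutadapt 3.4, Bowtie2 2.4.2 in local mode and featureCounts of Subread 2.0.1 on GRCm38, per the methods of the study and the submitters' processing notes. The methods name the KI contrast as the earlier batch and give fewer KI samples than the labels, and the labels were followed. The table left 0 columns of per-sample values unused. A count of 3 corresponds to 0.926 CPM in the deepest library and 5.36 CPM in the shallowest, and such floors cover counting error only.

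Counts were tested with edgeR 4.0.16 (quasi-likelihood test, TMM, filterByExpr) in R 4.3.3, in separate fits for each batch, with Benjamini-Hochberg adjustment over all miRNAs tested and a threshold of 0.1. Arm ratios were tested with limma 3.58.1. DESeq2 1.42.0, other scalings, filters and libraries left out were alternatives. Scripts were tested on simulated data. The text names all 8 members, the other arms of their hairpins, names with their seed, and the 3 names most like the summed 5p arms. The members and lists were chosen with earlier results of these data known.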

Additional observations from a re-analysis of the deposited data

Results flagged for a closer look

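In KI replicate 4 the 8 members took 2.519% of all counts, while the other 5 KI libraries lay between 2.307% and 2.352%. The gap to the nearest library was 0.789 of the range of the group. Of 44 combinations of a measure and a group that were screened for a library standing apart, this was the only 1, and chance alone would give 2.2. Without this library the call of miR-30e-5p in KI was lost (0.11, adjusted p of 0.141 by edgeR), miR-30c-5p was called lower (−0.14, adjusted p of 0.0820 by edgeR), and miR-30a-3p and miR-30e-3p stayed called.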

How the results depend on the processing

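With libraries scaled by size only, 5 members were called in KI in place of 3. With 5 added to each arm count, 1 hairpin, miR-30b, was called in KO in place of 0, and without KO replicate 4 also 1, so that leaving out single libraries gave 0 to 1. With hairpins of a mean of at least 1 count in both arms, 0 were called in KI in place of 2. Directions turned for the values that follow, of which miR-30c-2-3p between the WT groups was called as reported and miR-30d-5p between the WT groups was called after turning (adjusted p of 0.00355 by edgeR). For miR-30e-5p in KO the log2 fold change was −0.0447 without the filter, −0.0115 with counts divided by the number of loci and −0.015 with a shared spread. For miR-30c-2-3p in KO it was −0.0126 without the filter. Between the WT groups miR-30d-5p was −0.303 with library size only and −0.0206 with counts divided by loci, and miR-30c-2-3p −0.0172 with library size only. The cause was not tested. Leaving out single libraries gave −0.033 to 0.0488 for miR-30e-5p and −0.111 to 0.134 for miR-30c-2-3p in KO, −0.0461 to 0.0943 for miR-30d-5p between the WT groups, and, for the arm ratio in KO, −0.14 to 0.0665 for miR-30a and −0.311 to 0.00745 for miR-30d. Counts of calls over all miRNAs fell under the looser filter for the arm ratio, where 4 of 196 hairpins passed in KI and 0 of 166 in KO (limma).

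Replicate numbers are shared between the groups of a batch, but the labels do not say that they mark shared mice or days. Deviations of same-numbered libraries from their group means had a mean correlation of 0.047 in the KO batch (2 of 5 pairs over 0.1) and 0.19 in the KI batch (3 of 6), and 2 of 5 and 3 of 6 libraries correlated best with their own number, so the numbers were not taken as pairs. With the replicate block, 2 members were called in KO (miR-30c-5p was not, at −0.19 with an adjusted p of 0.126 by edgeR), 3 in KI and 0 for the difference of the effects, and 0 hairpins changed their arm ratio in KO and 3 in KI, where miR-30d was added (−0.44, adjusted p of 0.0796 by limma). Over all miRNAs the block moved the calls from 140 to 124 in KO, from 147 to 165 in KI and from 0 to 25 for the difference of the effects.

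The depth limited the 3p arms most, since miR-30c-2-3p had 26 to 67 counts in the KO libraries.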

Other observations

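Other miRNA families measured in the same fits gave values that stand beside those of miR-30 as a description. Of the 9 let-7 and miR-98 names tested, let-7c-5p rose and let-7a-5p fell in KO, with a median log2 fold change of 0.11, and let-7i-5p rose while let-7a-5p and let-7e-5p fell in KI, with a median of −0.02. Of the 3 miR-29 names, miR-29c-3p rose and miR-29b-3p fell in KO (median 0.16), and miR-29a-3p rose in KI (median 0.21). Of the 5 miR-34 and miR-449 names tested, which include abundant miRNAs of the male germ line, miR-449c-5p rose and miR-34b-5p and miR-34c-5p fell in KO (median −0.20), and miR-34a-5p and miR-34c-5p fell in KI (median −0.12). The background over all miRNAs was 21.3% higher and 20.7% lower in KO, and 18.1% and 19.9% in KI, and how the families compare was not tested.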
